A study of Mus musculus with 6 samples.

Results

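The data describe 10 genes whose proteins sit outside compact myelin or on its surface: Mag, Mog, Omg, Opalin, Cnp, Mpzl1, Rtn4, Lingo1, Cadm4 and Gpr62. They were taken by name from a deposited table of 46983 features, as a set proposed with earlier results of these data known. Each was found as 1 feature, and all 10 were among the 15153 features tested, whose mean normalized count reached 20. RNA came from oligodendrocytes isolated fresh from mouse brain, without culture, in 3 WT and 3 Qk-KO libraries on an FvB/C57BL6 hybrid background. Qk-KO mice carried Plp-CreERT2, a tamoxifen-dependent Cre recombinase driven by a myelin gene promoter, and LoxP sites in both copies of QK, and their genotype label is Qk-/-. Tamoxifen was given to both groups at 8 weeks of age, 4 days before brain collection. Whether the control mice carried the Cre or the LoxP alleles is not given in the sources used here, nor whether the libraries come from different mice. The p-values therefore describe variation among 6 libraries, which may be technical.

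Myelin is the membrane that an oligodendrocyte wraps around an axon. Most of it is compacted, but the innermost and outermost layers and the cytoplasmic channels are not, and these hold their own proteins. Myelin-associated glycoprotein (Mag) faces the axon, CNPase (Cnp) keeps the cytoplasmic channels open, and myelin oligodendrocyte glycoprotein (Mog) lies on the outer surface, where it is a known target of autoimmunity. Mag, oligodendrocyte myelin glycoprotein (Omg) and Nogo (Rtn4) are the 3 classical myelin ligands of the Nogo receptor, through which they restrain axon growth, and Lingo1 is a co-receptor of that complex.

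Values are log2 values per gene and library, scaled by the authors and pulled toward the gene mean where reads are few. A change is Qk-KO minus WT on that scale with its standard error, n = 3 libraries per group, and adjusted p-values are from limma over all tested genes with Benjamini-Hochberg adjustment. Estimated depth outside 4 ribosomal RNA features was 8700000 to 13100000 reads in the WT libraries and Qk-KO replicate 1, but 77100000 and 70000000 in Qk-KO replicates 2 and 3. Those features held 59.8% to 64.8% of the signal in the first 4 libraries, against 2.23% and 1.88% in the other two. Results are therefore also given for Qk-KO replicate 1 alone against WT, libraries of 1 type, under the assumption that the lone library varies as WT libraries do. Qk itself was 15.41, 15.67 and 15.31 in WT, against 16.10, 15.62 and 15.30 in Qk-KO, a value per whole gene that does not separate the deleted part and so does not check the labels. Markers of mature oligodendrocytes were all detected and summed to 143000 to 196000 normalized counts in WT and 206000 to 292000 in Qk-KO, led by Trf and Enpp2, which were not called. Of these 8 markers 2 were called higher, Gjb1 and Apod, and 1 lower, Hapln2. Summed astrocyte markers were 117000 to 148000 normalized counts in WT and 17800 to 28100 in Qk-KO, with 7 of 8 markers called lower and none at 0. Gfap, the other marker, differed by 0.81 ± 0.26 (limma adjusted p = 0.0526), and by 0.99 ± 0.31 in the authors' deposited table (DESeq2 adjusted p = 0.00873). Endothelial markers summed to 19700 to 28800 in WT and 11700 to 12400 in Qk-KO (6 of 6 lower), and mural markers to 15000 to 18100 and 8170 to 8870 (5 of 6 lower). Oligodendrocyte precursor markers summed to 13300 to 22600 in WT and 4340 to 11500 in Qk-KO (2 of 8 lower, Ptprz1 and Sox6). Ptprz1, the largest of them in WT, was 13.10, 13.16 and 13.36 there, against 11.85, 11.27 and 10.12 in Qk-KO. Pdgfra, Cspg4, Vcan, Matn4, Lhfpl3 and C1ql1 were not called, and the groups overlapped for each. Microglial markers summed to 4970 to 8190 in WT and 11100 to 41900 in Qk-KO (3 of 8 higher). Newly formed oligodendrocyte markers summed to 11300 to 15300 and 12800 to 16800, with 2 of 7 higher and 2 lower. The part of these shifts in the results below was not tested. In bulk RNA, fewer cells of a type and less RNA per cell cannot be told apart.

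In WT libraries the members spanned a wide range of levels per kilobase of exon. Cnp stood highest, with a mean of 13.995 log2 normalized counts per kb and a range of 13.81 to 14.28 over the 3 libraries. Mag followed at 13.35 and Mog at 12.96, and the ranges of these neighbours overlapped. Rtn4 was at 11.57 and Cadm4, a cell adhesion molecule of the internode, at 11.39, again with overlapping ranges. Opalin, an oligodendrocyte membrane glycoprotein, was at 10.99 and Omg at 10.89, which overlapped too. Gpr62, an orphan G protein-coupled receptor, was at 9.86 and Mpzl1, a relative of myelin protein zero that binds the phosphatase SHP-2, at 9.04. Lingo1 was lowest at 5.09, clear of all others. In Qk-KO the order changed in the middle: Opalin moved from sixth to the fourth place with a mean of 12.23 per kb, above Rtn4 at 12.14 and Cadm4 at 11.95, and Gpr62 at 11.11 came to lie above Omg at 10.29. The Qk-KO ranges of Opalin (12.02 to 12.33) and Rtn4 (11.73 to 12.61) overlapped, and in replicate 1 Rtn4 was the higher, whereas those of Gpr62 (10.99 to 11.18) and Omg (10.02 to 10.51) did not overlap.

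**Figure D1:**
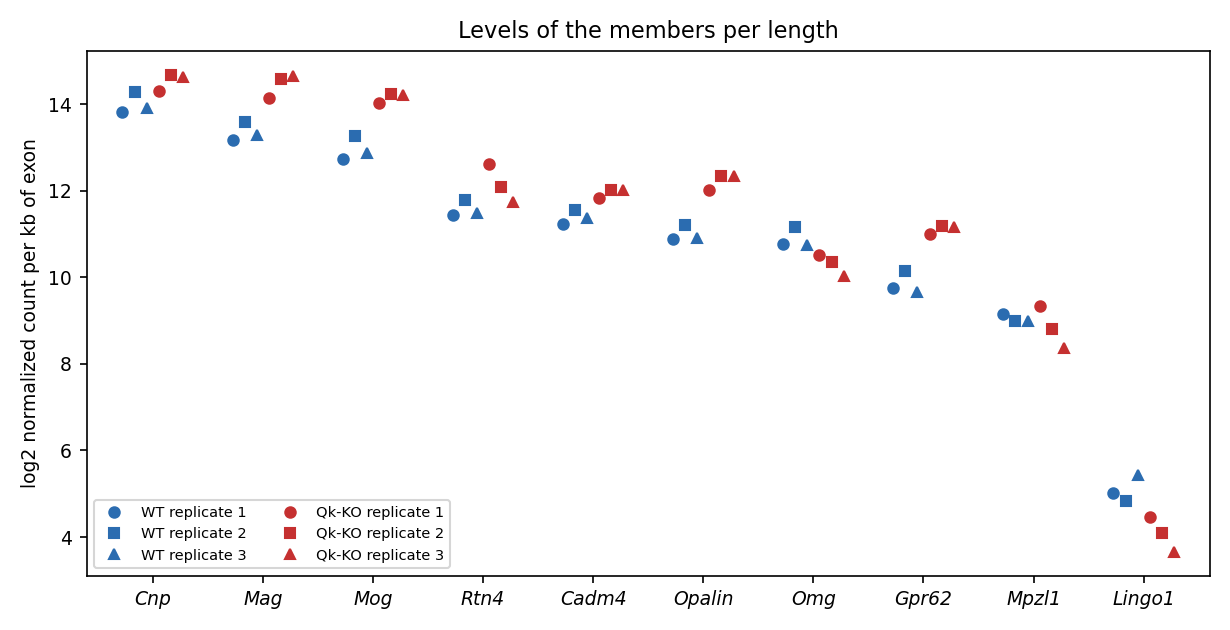
Log2 normalized count per kb of exon (vertical axis) for the 10 genes, ordered by the WT mean, each point 1 library (blue for WT, red for Qk-KO, circle, square and triangle for replicates 1, 2 and 3). Cnp and Mag are highest in both groups and Lingo1 lowest, and the Omg points of Qk-KO lie below those of Gpr62.

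Of the 10 genes, 5 rose, 2 fell and 3 were not called. Among all genes tested 13.8% were called higher and 14.8% lower. Mag, Mog, Opalin, Gpr62 and Cadm4 rose, and Omg and Lingo1 fell. The median change of the 10 was 0.57, against 0.03 over all genes tested. The groups did not overlap for 6 members higher in Qk-KO and 2 lower, where 24.5% and 21.8% of all genes tested showed this. In Qk-KO replicate 1 alone, 4 members were called higher (6.17% of all genes), Mog, Opalin, Gpr62 and Rtn4, and no member was called lower by limma (9.37% of all genes), with 0 also at an unadjusted p under 0.05. With library type, high or low ribosomal share, as a term, limma called 4 members higher (5.76% of all genes) and 0 lower (9.14%). At an unadjusted p under 0.05 it also called 0 lower. All low-share libraries are Qk-KO, so each change here equals that of replicate 1 against WT and is not a separate estimate. In the authors' deposited table, made with DESeq2, 7 members were higher and 2 lower, where 13.7% and 14.2% of features with an adjusted p were called.

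**Figure D2:**
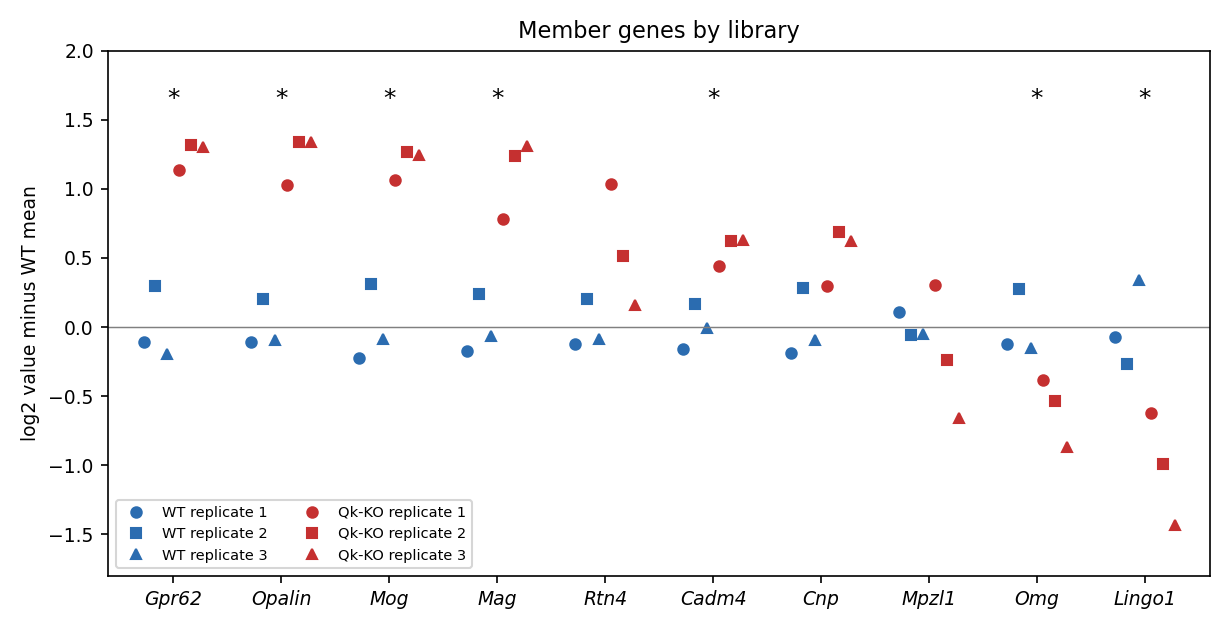
Log2 value minus the WT mean (vertical axis) for the 10 genes, ordered by change, each point 1 library (blue for WT, red for Qk-KO); stars mark limma adjusted p under 0.05. Gpr62, Opalin, Mog and Mag lie 1.11 to 1.25 above the WT mean on average, Omg and Lingo1 lie below it in every Qk-KO library, and Rtn4 and Mpzl1 spread widely within Qk-KO.

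Among surface proteins, Opalin (chromosome 19, 41061710 to 41077113, minus strand, mm10) had log2 values of 12.45, 12.76 and 12.46 in WT replicates 1, 2 and 3. It had 13.58, 13.89 and 13.89 in Qk-KO replicates 1, 2 and 3. All 3 Qk-KO libraries were above all WT libraries, and the change was 1.24 ± 0.15 (SE, limma adjusted p = 0.00101), a 2.36-fold rise. A larger rise was seen in 217 of the 15153 genes tested. In Qk-KO replicate 1 against WT the change was 1.03 (adjusted p = 0.00729).

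Mog (chromosome 17, 37010743 to 37023398, minus strand) was 13.50, 14.04 and 13.64 in WT, against 14.79, 14.99 and 14.98 in Qk-KO. The groups were well apart, with an SD of 0.28 in WT and 0.11 in Qk-KO, and the change was 1.19 ± 0.18 (adjusted p = 0.00255). Replicate 1 alone gave 1.07 (adjusted p = 0.0188).

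Gpr62 (chromosome 9, 106463962 to 106465938, minus strand) had the largest rise of the 10 genes. Its values were 10.73, 11.14 and 10.65 in WT, against 11.97, 12.16 and 12.15 in Qk-KO, without overlap, and the change was 1.25 ± 0.15 (adjusted p = 0.000904). Replicate 1 alone gave 1.13 (adjusted p = 0.0101). Of its exonic bases 51, or 2.58%, are shared with Pcbp4 on the opposite strand, which rose by 0.91 ± 0.12 (adjusted p = 0.00149). The strandedness of the counting is not given in the sources used here, so reads over the shared bases cannot be assigned.

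Mag (chromosome 7, 30899176 to 30914873, minus strand) was 15.20, 15.61 and 15.31 in WT, against 16.16, 16.61 and 16.68 in Qk-KO. Every Qk-KO library was above every WT library, and replicate 1 was the lowest of the Qk-KO libraries. The change was 1.11 ± 0.24 (adjusted p = 0.0117). It was not called in replicate 1 alone (0.78, adjusted p = 0.0628). Leaving out Qk-KO replicate 2 (adjusted p = 0.0627), WT replicate 1 (0.0592) or WT replicate 3 (0.0535) also ended the call. Mag makes a large and a small isoform by alternative splicing, and quaking is known to act on it. One value per gene does not separate the isoforms.

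The mean changes of these 4 genes lay between 1.11 and 1.25, but Mag stood apart in replicate 1. The log2 ratio of Gpr62 to Opalin in the same library, chosen for display after the values were seen, was -1.71, -1.62 and -1.81 in WT, against -1.61, -1.73 and -1.75 in Qk-KO (difference 0.02, exact permutation p = 0.9, two-sided). The mean ratio of Opalin to Mog was -1.17 ± 0.11 and -1.13 ± 0.07 (SD, n = 3) in WT and Qk-KO. The ratio of Mag to Mog was 1.70, 1.57 and 1.66 in WT, against 1.36, 1.62 and 1.70 in Qk-KO, so replicate 1 was below all WT libraries. With 3 libraries against 3 the smallest exact p is 0.1, so these values do not show that the genes changed equally.

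The 3 Nogo receptor ligands did not move together. Omg (chromosome 11, 79500982 to 79504084, minus strand), a GPI-anchored protein with leucine-rich repeats, was 11.92, 12.32 and 11.89 in WT, against 11.66, 11.51 and 11.18 in Qk-KO. All Qk-KO values were below all WT values, with replicate 1 closest to WT, and the change was -0.60 ± 0.17 (adjusted p = 0.0342). It was not called in replicate 1 alone (-0.38, adjusted p = 0.232), nor when any library but Qk-KO replicate 1 was left out (0.0633 to 0.0975). In the authors' deposited table the change was -0.69 ± 0.22 (adjusted p = 0.0100). With library size alone as the scaling, under which the median of all genes moved from 0.03 to 1.09, Omg stood at 0.46 and was not called.

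Rtn4 (chromosome 11, 29692947 to 29744331, plus strand) was 14.25, 14.58 and 14.29 in WT, against 15.41, 14.89 and 14.54 in Qk-KO. The Qk-KO libraries spread over 0.88 log2 units, and replicate 3 lay within the WT range. The change was 0.57 ± 0.24 and was not called (adjusted p = 0.112). It passed in replicate 1 alone (1.04, adjusted p = 0.0131) and without Qk-KO replicate 3 (0.77, adjusted p = 0.0371). The authors' deposited table gives 0.69 ± 0.26 (adjusted p = 0.0308). Rtn4 encodes Nogo-A and shorter isoforms that share their C-terminal part, which one value per gene does not separate. Exons of Eml6 on the opposite strand cover 18.4% of its exonic bases, and Eml6 differed by 0.12 ± 0.10 (adjusted p = 0.3998).

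Ratios between ligands in the same library do not depend on how libraries were scaled. They were chosen after the values were seen. The log2 ratio of Mag to Omg was 3.28, 3.29 and 3.42 in WT, against 4.49, 5.10 and 5.50 in Qk-KO, a difference of 1.71 with no overlap (exact permutation p = 0.1, the smallest this design allows). That of Rtn4 to Omg was 2.33, 2.26 and 2.40 in WT, against 3.75, 3.38 and 3.36 in Qk-KO, a difference of 1.16, also with no overlap. The ratio of Mag to Rtn4 overlapped, at 0.95, 1.03 and 1.02 in WT, against 0.74, 1.72 and 2.14 in Qk-KO. Relative to Omg, then, both other ligands were higher in every Qk-KO library, whereas their own ratio went down in replicate 1 and up in replicates 2 and 3.

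Omg lies in an intron of Nf1, which encodes neurofibromin and runs on the opposite strand, beside the genes Evi2a and Evi2b. The exons of Omg share no base with those of Nf1. Nf1 was 12.65, 12.70 and 12.64 in WT, against 12.44, 12.27 and 11.94 in Qk-KO, a change of -0.45 ± 0.15 that was not called (adjusted p = 0.0529). Its groups did not overlap, and the authors' deposited table gives -0.50 ± 0.19 (DESeq2 adjusted p = 0.0322), so Nf1 was called lower there. Evi2a, on the strand of Omg, differed by 0.04 ± 0.17 (adjusted p = 0.894) and Evi2b by 0.17 ± 0.26 (adjusted p = 0.660). Whether unspliced Nf1 RNA adds to the Omg value was not tested.

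The co-receptor gene Lingo1 (chromosome 9, 56618475 to 56796468, minus strand) was weakly expressed, at 7.25, 7.06 and 7.67 in WT, against 6.71, 6.34 and 5.90 in Qk-KO. These values stand for about 76, 64 and 90 reads in WT, against 64, 335 and 225 in Qk-KO, where replicates 2 and 3 were sequenced more deeply. Such reads are estimated from log2 values already pulled toward the gene mean, and are not counts. The groups did not overlap, and the change was -1.01 ± 0.25 (adjusted p = 0.0190). It was not called in replicate 1 alone (-0.62, adjusted p = 0.200). Leaving out Qk-KO replicate 2 (adjusted p = 0.0594), WT replicate 1 (0.0559) or WT replicate 3 (0.0705) had the same effect. The authors' deposited table gives -1.52 ± 0.42 (adjusted p = 0.00171). Lingo1 is also expressed by neurons. Of 8 neuronal markers 2 rose, Slc17a7 and Tubb3, and the list summed to 1460 to 1640 normalized counts in WT and 1970 to 3890 in Qk-KO. Without Tubb3 the other 7 summed to 712 to 890 in WT and 642 to 1030 in Qk-KO, which overlap. Tubb3 was not called in replicate 1 alone (0.38, adjusted p = 0.373), and Stmn2 (-0.34, adjusted p = 0.134) and Nefl (-0.49, adjusted p = 0.253) were not called with all libraries.

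Of the adhesion and channel proteins, Cadm4 (chromosome 7, 24482023 to 24504539, plus strand), which binds axonal members of its family, was 12.34, 12.66 and 12.49 in WT, against 12.94, 13.12 and 13.13 in Qk-KO. The groups did not overlap, and the change was 0.57 ± 0.13 (adjusted p = 0.0156). It was not called in replicate 1 alone (0.44, adjusted p = 0.113). The call also ended when Qk-KO replicate 2 (adjusted p = 0.0705), WT replicate 3 (0.0607) or WT replicate 1 (0.0688) was left out. Cnp (chromosome 11, 100574904 to 100591729, plus strand) was 15.67, 16.14 and 15.76 in WT, against 16.15, 16.54 and 16.49 in Qk-KO. The lowest Qk-KO value and the highest WT value nearly touched, and the change of 0.54 ± 0.24 was not called (adjusted p = 0.131). It passed in the authors' deposited table (0.61 ± 0.21, adjusted p = 0.0171) and without Qk-KO replicate 1 (0.66, adjusted p = 0.0492). Exons of Dnajc7 on the opposite strand share 154 bases, or 4.23%, with those of Cnp, and Dnajc7 rose by 0.47 ± 0.14 (adjusted p = 0.0446). Mpzl1 (chromosome 1, 165592240 to 165634538, minus strand) was 10.97, 10.81 and 10.81 in WT, against 11.17, 10.63 and 10.20 in Qk-KO. Replicate 1 was above and replicates 2 and 3 below all WT libraries, so the change of -0.20 ± 0.22 (adjusted p = 0.527) averages values on both sides of WT. Without replicate 1 it was -0.45 (adjusted p = 0.0469), and in replicate 1 alone 0.30 (adjusted p = 0.200).

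**Figure D3:**
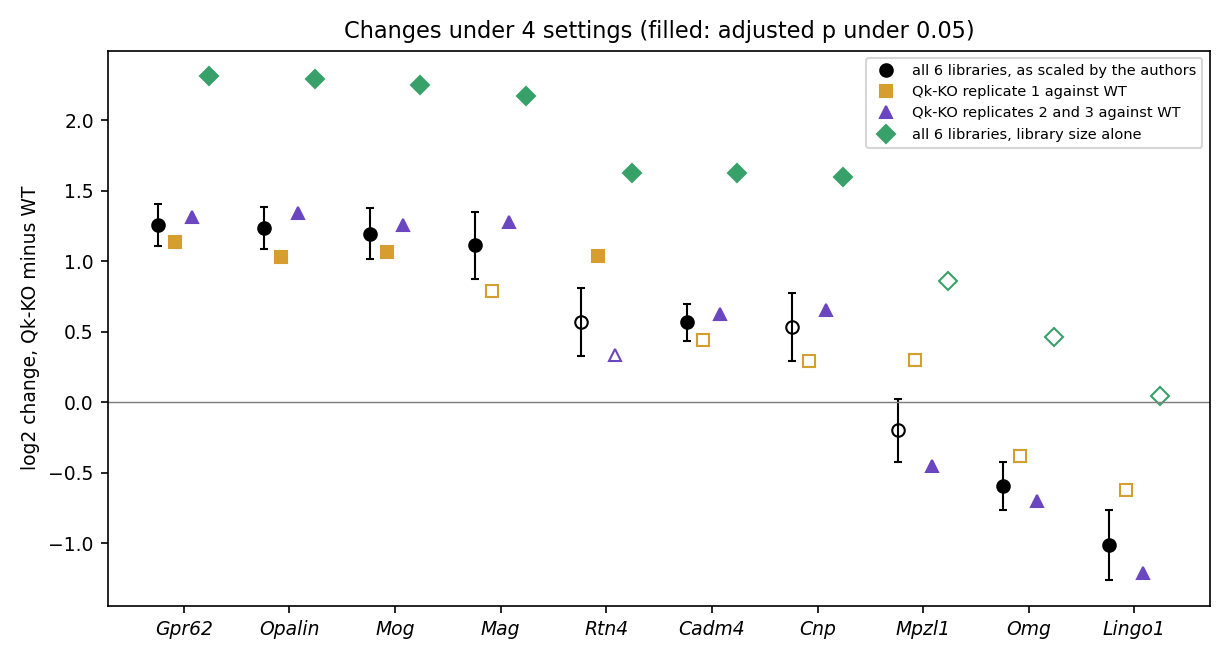
Log2 change, Qk-KO minus WT (vertical axis), of the 10 genes with all 6 libraries (black, bars are standard errors), with Qk-KO replicate 1 or replicates 2 and 3 against WT, and with library size alone as the scaling; filled symbols have an adjusted p under 0.05. Gpr62, Opalin and Mog are filled under all 4 settings, Mpzl1 takes both signs, and library size alone places Omg at 0.46 and Lingo1 at 0.04, where the median gene stands at 1.09.

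Of genes for structural proteins of compact myelin and its tight junctions, Mbp rose by 1.07 ± 0.26 (adjusted p = 0.0176), Cldn11 by 0.85 ± 0.20 (adjusted p = 0.0176) and Mobp by 0.76 ± 0.21 (adjusted p = 0.0299). Of these Cldn11 was not called in replicate 1 alone (0.65, adjusted p = 0.1099). The log2 ratio of Mag to Mbp in the same library was -1.15, -0.68 and -0.66 in WT, against -1.19, -0.70 and -0.48 in Qk-KO. The groups overlapped, with a difference of 0.04 (exact permutation p = 1.0, two-sided).

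Genes with the most similar profile over the 6 libraries were looked for among 3867 others averaging 1000 or more normalized counts. Likeness is the root-mean-square distance between log2 profiles, each minus its own mean. Nearest to Mag were Lhfpl2 (0.045), Wscd1 (0.069) and Slc27a4 (0.071), against a median distance of 0.545. Nearest to Opalin were Taldo1, B3gnt9 and Aatk, at 0.043 to 0.051, and its distances to Gpr62 and Mog were 0.071 and 0.079. Omg was closest to Manea, Cdh2 and Sec63 (0.070 to 0.078), and to Mag it lay at 0.904.

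Quaking binds RNA at a short core motif, often with a shorter companion motif nearby. The 3′ untranslated regions of the members were searched in their own sense for the core as ACTAAC or ACTAAT, in DNA letters, and around it for the companion as TAAC or TAAT. The core was found once in Omg and once in Cadm4 and in none of the other 8, which gives 0.22 per kb over 9089 bases, against 0.344 per kb over the 13156 tested genes with such a region. Of regions within 20% of the length of Omg's 717 bases 20.1% hold a core, and of those near Cadm4's 918 bases 24.4%. The 2 sites are shown because one lies in a gene that fell and the other in a gene that rose. They come from GENCODE M21 transcripts on GRCm38, with the core in capitals. The Omg site (chr11:79501469-79501498, minus strand) has a companion within 20 bases of the core, outside the stretch shown. The Cadm4 site (chr7:24504496-24504525, plus strand) has none within that distance.
Omg: gtcttaagtaaaACTAATgacttttttttt
Cadm4: tttggcaatcccACTAACcaccattaaact
A match is a description of the letters and not evidence of binding, and introns, where quaking also binds, were not searched.

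Promoters in the RefSeq table for GRCm38.p6, 250 bases before to 50 after each start site, were found for 9 of the 10 members and not for Omg. They were searched on both strands, after the changes were known, for 4 kinds of motif. The motif of the myelin gene regulatory factor Myrf, searched as CTGGCAC and also as CTGGTAC, is held by 7.10% of the 32851 promoters of that length in the table. The Sox protein motif, searched as ACAAAG and also as ACAATG, is held by 28.6%. The E box, searched as CAGCTG, is held by 16.3%, and the TATA box, searched as TATAAA, by 13.6%. No match in the members shares a base with a match of another kind. The Myrf motif was found in 5 of the 9 members, Mag, Mog, Gpr62, Cnp and Opalin, against 8.26% of 10458 tested genes with a promoter. The Sox motif was also found in 5, Mag, Opalin, Cnp, Rtn4 and Cadm4, against 23.4% of those genes, and the E box in 3, Opalin, Lingo1 and Gpr62, against 18.2%. No TATA box was found in the members, against 8.61%. The 9 members had a mean of 1.56 promoters per gene, against 1.29 over those 10458 genes, which makes a match per gene easier. As for the quaking core, a match is not evidence of binding. Sequences are shown for the 5 with the Myrf motif because they share it and include the 4 genes with the largest rises. The motif is given in capitals as it reads on the gene's strand, and the sequences are the 150 bases before the start site, except that of Opalin, whose match begins at base 37 after it. The matches begin 68 bases before the start site in Mag (chr7:30914864-30915013, minus strand), 83 in Mog (chr17:37023399-37023548, minus strand), 74 in Gpr62 (chr9:106465986-106466135, minus strand) and 81 in Cnp (chr11:100574789-100574938, plus strand). The Opalin stretch is chr19:41077064-41077089 on the minus strand. In Mog and Opalin the motif is on the opposite strand and reads as its reverse complement.
Mag: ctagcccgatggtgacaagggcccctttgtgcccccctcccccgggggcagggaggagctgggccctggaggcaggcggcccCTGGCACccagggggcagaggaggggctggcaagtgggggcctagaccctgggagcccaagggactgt
Mog: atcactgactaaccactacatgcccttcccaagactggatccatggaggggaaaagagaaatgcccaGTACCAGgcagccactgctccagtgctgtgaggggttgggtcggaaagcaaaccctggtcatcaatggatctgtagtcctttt
Gpr62: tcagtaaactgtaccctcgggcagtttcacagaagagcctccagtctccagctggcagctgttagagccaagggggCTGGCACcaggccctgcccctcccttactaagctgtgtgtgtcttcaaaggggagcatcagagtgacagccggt
Cnp: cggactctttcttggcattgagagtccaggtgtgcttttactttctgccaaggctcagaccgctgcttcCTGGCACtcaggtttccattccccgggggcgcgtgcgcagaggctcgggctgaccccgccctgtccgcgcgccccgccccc
Opalin: caaagacctgcaGTGCCAGtgagaga
Mag has 3 promoters in the table, of which 2 overlapping ones hold the motif, and the first is shown. Myrf itself was 14.22, 14.39 and 14.10 in WT, against 15.38, 14.38 and 14.15 in Qk-KO, a change of 0.40 ± 0.31 (adjusted p = 0.352). Replicate 1 stood above all WT libraries, with a change of 1.14 against the WT mean, and replicates 2 and 3 lay within their range.

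Around these genes, receptors of the Nogo pathway were mostly not called. Of 7 receptor genes tested 1 fell, Tnfrsf19, a receptor also known as TROY that can stand in for p75 in the complex. It was 10.51, 10.51 and 10.64 in WT, against 9.41, 9.51 and 9.37 in Qk-KO, a change of -1.12 ± 0.11 (adjusted p = 0.000326), and it was also called in replicate 1 alone (-1.14, adjusted p = 0.00256). Tnfrsf19 is also expressed by astrocytes, of whose 8 markers 7 were called lower in the same libraries. A link between these falls was not tested. The Nogo receptor gene Rtn4r was near the lower limit of the tested genes, with values from 4.13 to 4.61 in all libraries. The p75 gene Ngfr differed by -0.10 ± 0.16 (adjusted p = 0.660). Of 5 relatives of Rtn4 and Lingo1 tested 1 fell, Rtn3, a reticulon of the endoplasmic reticulum, by 0.80 ± 0.14 (adjusted p = 0.00547), while Rtn1 differed by -0.32 ± 0.20 (adjusted p = 0.252).

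Mag binds sialylated gangliosides. Of 8 genes of their synthesis, with the kinase gene Fyn, 3 fell: the sialyltransferase genes St8sia1 (-0.98 ± 0.21, adjusted p = 0.0108), St3gal2 (-0.87 ± 0.17, adjusted p = 0.00775) and St3gal5 (-0.58 ± 0.14, adjusted p = 0.0187). None of the 3 was called in replicate 1 alone, where limma gave adjusted p-values from 0.0657 to 0.219. Fyn differed by 0.08 ± 0.13 (adjusted p = 0.656). Of 6 Cadm and protein 4.1 genes 2 fell and 1 rose. Cadm2, an adhesion partner known from axons, fell by 1.27 ± 0.20 (adjusted p = 0.00278). Epb41l3 fell by 0.46 ± 0.11 (adjusted p = 0.0189) and was not called in replicate 1 alone (-0.42, adjusted p = 0.0996). Epb41l1 rose by 0.74 ± 0.11 (adjusted p = 0.00217).

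Ptpn11, which encodes SHP-2, the binding partner of Mpzl1, rose by 0.61 ± 0.14 (adjusted p = 0.0147), the 1 called among 3 genes tested with the relatives of myelin protein zero. Of 5 oligodendrocyte G protein-coupled receptors 2 rose and 1 fell. Gpr61, the closest relative of Gpr62, was 6.83, 6.97 and 5.95 in WT, against 8.51, 8.57 and 8.49 in Qk-KO, a rise of 1.94 ± 0.26 (adjusted p = 0.00154). S1pr5, a sphingosine-1-phosphate receptor, rose by 1.16 ± 0.14 (adjusted p = 0.000996), and Adgrg1 fell by 0.83 ± 0.21 (adjusted p = 0.0193). In replicate 1 alone Gpr61 and S1pr5 were called too (1.92 and 1.10), and Adgrg1 was not (-0.34, adjusted p = 0.140). Of 11 other non-compact myelin genes 2 rose, the connexin gene Gjb1 (1.07 ± 0.16, adjusted p = 0.00250) and Bcas1 (0.71 ± 0.12, adjusted p = 0.00369). Their list had a median change of 0.38, against 0.57 for the 10 genes described here. In replicate 1 alone the medians were 0.62 and 0.61, with 5 of the 11 called higher.

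**Figure D4:**
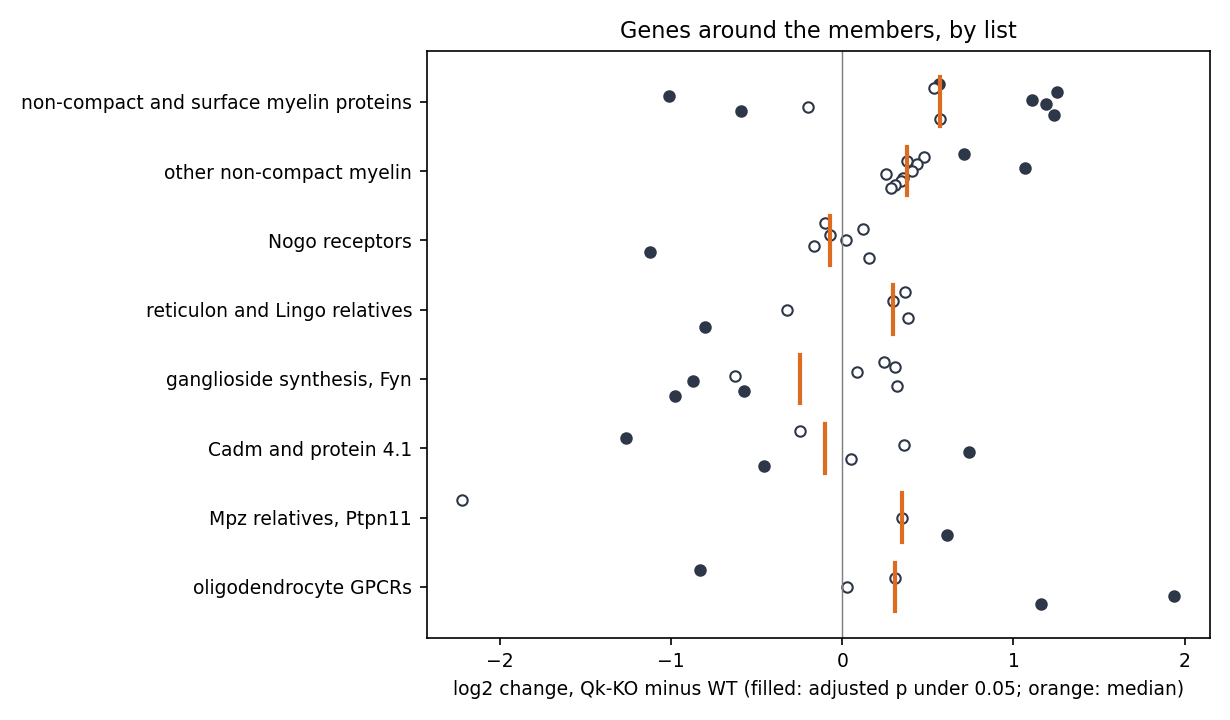
Log2 change, Qk-KO minus WT (horizontal axis), of every tested gene in 8 lists, 1 point per gene (filled with an adjusted p under 0.05) and the list median in orange. The 10 non-compact and surface myelin genes have a median of 0.57, with 5 filled points to the right and 2 to the left, and the Nogo receptor list holds 1 filled point, Tnfrsf19 at -1.12.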

How the data were processed

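Per the submitters' processing notes, the authors ran DESeq2, featureCounts, TopHat2 2.0.14 and FastQC with mm10. The sources used here do not give annotation release, strandedness or read length. The authors deposited 1 log2 value per gene and library, which behaves as a regularized log2 value. Per the file headers, the deposited table adds a normalized count averaged over the 6 libraries (a signal), a log2 fold change with its error, a Wald score, and raw and adjusted p-values.

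Since no raw counts were used, the planned count model gave way to limma 3.58.1 with a mean-variance trend in R 4.3.3, fitted to the log2 values of 15153 features (mean normalized count 20 or more) with genotype as the only term and no pseudocount. On data simulated with the real means and spreads, 63 genes were changed by 0.5 log2 units, 68 by 1 and 69 by 2, among 15153. It called 9.52% of changes of 0.5, 61.8% of 1 and 97.1% of 2. Of its calls there 3.36% were false. A change near 0.5 that was not called is therefore not shown to be absent. The simulation changed far fewer genes than were called in the real data, and gave all 6 libraries the same spread. Its rates need not hold for the real fit. An adjusted p under 0.05 is a call. Depth was estimated from the steps of low mean normalized counts, which give size factors. Ratios within libraries were compared with an exact permutation test (scipy 1.17.1). Positions and exon lengths are from GENCODE M21, matched by identifier without version. Named genes are the members, up to 3 called genes per direction in each list or its most abundant gene, the genes around Omg, and the 3 most similar profiles. Genes outside this rule were named after their values were seen. Members and lists were chosen with earlier results of these data known. Alternatives were other filters, scalings, limma settings and terms (replicate number, library type, number series), the authors' table, and leaving out libraries. The planned ratio of each member to compact myelin genes, and 1 pathway list, are not reported here.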

Additional observations from a re-analysis of the deposited data

How the results depend on the processing

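Opalin, Mog and Gpr62 were called higher in all 17 alternatives. Of these, the library type term and replicate 1 alone give the same change for each gene by design. Mag and Cadm4 kept the call in 12, Lingo1 in 11 and Omg in 8. With library size alone, where the median gene moved to 1.09, 65 genes were called lower (2382 higher), no member was called lower by limma (0, also 0 at an unadjusted p under 0.05), and Omg (0.46), Mpzl1 (0.86) and Lingo1 (0.044) changed sign. With a term for library type, 873 genes passed as higher and 1385 lower, with 0 members lower (0 unadjusted), and Mpzl1 was at 0.30. In Qk-KO replicate 1 alone against WT the counts were 935 and 1420, with 0 members lower (0 unadjusted), and Mpzl1 was again at 0.30. With no filter, 1 member was called lower (2 unadjusted). When 1 library was left out, 929 (without Qk-KO replicate 2) to 2840 (without Qk-KO replicate 1) genes were called higher and 1441 to 2793 lower, with the same libraries left out, and 3 to 6 members higher and 0 to 3 lower. Mpzl1 then ranged from -0.45 to 0.031. The cause of these changes was not tested. Same-numbered libraries were treated as unpaired in the main fit. Their deviations correlated at 0.10, 0.00 and 0.08, and not every library correlated best with its own number. With so few libraries, these correlations do not settle whether they were paired. With the replicate block 2091 genes were called higher and 2254 lower, and members stayed at 5 and 2. Depth limits Lingo1, with about 64 to 335 reads per library as estimated from the log2 values.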

Other observations

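Over all tested genes, the quaking core in the 3′ untranslated region was held by 42.9% of 1969 genes called lower, 25.5% of 1979 called higher and 32.8% of 9208 not called. These regions differed in length, with medians of 1538, 939 and 1057 bases, and per kb the core stood at 0.375, 0.291 and 0.345. The part of length in these shares was not tested. The Myrf motif was in the promoters of 9.04% of 1549 genes called higher, 9.41% of 1520 called lower and 7.86% of 7389 not called, so it was about as frequent among genes that fell as among genes that rose.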
